A study of Mus musculus with 2 samples.

Results

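A set of 40 genes of DNA replication and mitosis was followed through single cells of mouse colon tumour tissue. The genes come from a fixed list, and all 40 were found by symbol among the 55357 genes of both deposited matrices. By role they divide into 17 S-phase members, 20 mitotic members and 3 members, Ccna2, Esco2 and Fbxo5, that act from S phase into mitosis and entered neither sum. The study holds 2 single-cell RNA libraries, 1 per genotype. The library labelled KO came from colon tumour tissue of ECM1Flox/Flox, Villin-Cre mice, in which the Villin promoter drives Cre recombinase in intestinal epithelium. The library labelled WT came from the same tissue of ECM1Flox/Flox mice without Cre, so both groups carry the floxed Ecm1 alleles. Age, number of animals and tumour model are not given in the labels.

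A dividing cell first copies its DNA and then separates the copies. Before replication, Cdc6 and Cdt1 load the ring-shaped MCM helicase (Mcm2 to Mcm7) onto DNA, and cyclin E (Ccne1, Ccne2) drives entry into S phase. Ribonucleotide reductase (Rrm1, Rrm2) and thymidylate synthase (Tyms) supply nucleotides, and Pcna is the sliding clamp of the replication fork. Mitosis is driven by Cdk1 with its B cyclins, which are destroyed when the anaphase-promoting complex acts with Cdc20 and Ube2c. In the intestine, dividing cells lie near the crypt base and stop dividing as they move toward the surface.

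Promoters of S-phase genes are known for E2F sites, and those of mitotic genes for CHR elements and CCAAT boxes. In the RefSeq promoter table (GRCm38.p6), 31 of the 40 members had an entry, and the 250 bases before the start were searched on both strands. The E2F-type motif was the heptamer TTCCCGC or TTCGCGC, or else the variant TTGCCGC or TTGGCGC. It was present in 7 of 13 S-phase members (53.8%) and 4 of 17 mitotic members (23.5%), against 9.01% of the 27025 genes of the table. The CHR motif, TTTGAA or TTTAAA, was present in 3 S-phase members (23.1%) and 13 mitotic members (76.5%), against 28.1% of all genes. CCAAT was present in 9 S-phase members (69.2%) and 15 mitotic members (88.2%), against 37.5% of all genes. TTTAAA reads the same on both strands, CCAAT matches on opposite strands can overlap, as in the Ube2c window, and a match is not a measured binding site. Some members crossed this pattern, since Mcm2 and Ccne1 held CHR but no E2F-type matches, and Cdk1 and Mki67 held both. The promoters of 4 members, picked because they hold the motif of their list, are shown as examples. They were taken from members with a single promoter entry whose strand could be checked against a transcript, which left out Mcm5, Mcm6, Mcm7 and Uhrf1. Of the members kept, Rrm1 and Rrm2 are the S-phase members with an E2F-type match, and Ube2c and Top2a the mitotic members with a CHR match, that had the most UMIs in epithelial-like cells. Capitals mark every match to these motifs on either strand. Rrm1 lies on the plus strand at chr7:102441445-102441694, Rrm2 on the plus strand at chr12:24708004-24708253, Ube2c on the plus strand at chr2:164769679-164769928 and Top2a on the minus strand at chr11:99024190-99024439.
Rrm1: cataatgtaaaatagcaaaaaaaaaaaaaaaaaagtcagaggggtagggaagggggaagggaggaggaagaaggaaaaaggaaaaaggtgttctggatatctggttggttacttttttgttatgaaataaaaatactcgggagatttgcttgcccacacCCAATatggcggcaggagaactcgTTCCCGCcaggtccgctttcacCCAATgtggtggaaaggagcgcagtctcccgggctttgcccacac
Rrm2: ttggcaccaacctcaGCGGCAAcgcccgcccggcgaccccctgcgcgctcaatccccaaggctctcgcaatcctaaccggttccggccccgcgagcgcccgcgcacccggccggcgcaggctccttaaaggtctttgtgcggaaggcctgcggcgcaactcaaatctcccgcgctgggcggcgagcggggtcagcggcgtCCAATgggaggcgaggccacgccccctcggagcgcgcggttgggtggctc
Ube2c: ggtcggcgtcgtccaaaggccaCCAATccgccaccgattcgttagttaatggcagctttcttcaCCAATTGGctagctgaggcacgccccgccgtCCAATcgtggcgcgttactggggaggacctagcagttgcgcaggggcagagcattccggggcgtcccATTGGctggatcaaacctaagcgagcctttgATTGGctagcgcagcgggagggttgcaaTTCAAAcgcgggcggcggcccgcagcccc
Top2a: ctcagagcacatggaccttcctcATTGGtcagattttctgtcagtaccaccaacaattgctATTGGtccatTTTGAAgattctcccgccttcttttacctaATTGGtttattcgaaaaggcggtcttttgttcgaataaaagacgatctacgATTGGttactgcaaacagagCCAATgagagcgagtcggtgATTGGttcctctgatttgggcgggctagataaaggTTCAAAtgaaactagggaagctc
Both S-phase windows hold 1 E2F-type match and 0 CHR matches. The Ube2c window holds 1 CHR match and the Top2a window 2, and both hold 6 CCAAT matches and 0 E2F-type matches.

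After filtering, 4233 cells of the library labelled KO (median 10429 UMIs per cell) and 8262 of the library labelled WT (median 2741) remained. A UMI marks 1 captured RNA molecule. Levels are given as CPM, the UMIs of a gene or list scaled to 1000000 UMIs of the cells summed, and pairs of values name the library labelled KO first. Cells were grouped into 27 clusters without the cell cycle genes and called "-like" from marker genes, and 13 kept barcodes occurred in both libraries. Ecm1 was not lower in the library labelled KO. Its level in epithelial-like cells was 40.8 CPM (95% interval 39.1 to 42.5) there and 34.99 (32.8 to 37.2) in the other library. The exons that Cre removes are not stated, so reads from outside them check nothing. Sex-linked RNA also differed. Xist, which silences an X chromosome in females, had 96659 and 5 UMIs, and Y-linked Ddx3y had 0 and 5419. With 1 library per genotype there is no test between genotypes, and genotype, sex and library preparation cannot be told apart. Intervals are exact and cover counting error only.

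Dividing-cell RNA was highest in epithelial-like cells among the 4 main classes (epithelial, macrophage, T and plasma) for mitotic members in both libraries. Mitotic members summed to 1446 and 1158 CPM in epithelial-like cells. The sums were 564 and 695 CPM in T-like cells, 595 and 337 in cells called monocyte/macrophage-like (macrophage-like from here on) and 596 and 197 in plasma-like cells. Neutrophil-like cells, mature cells that do not divide, had 54.3 and 131 CPM. S-phase members summed to 790.2 and 602 CPM in epithelial-like and 589 and 608 CPM in T-like cells. In macrophage-like and plasma-like cells the S-phase sums were 421 and 272 CPM, and 288 and 167 CPM. T-like cells of the library labelled WT thus had as much S-phase RNA as epithelial-like cells, but less mitotic RNA in both libraries.

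**Figure D1:**
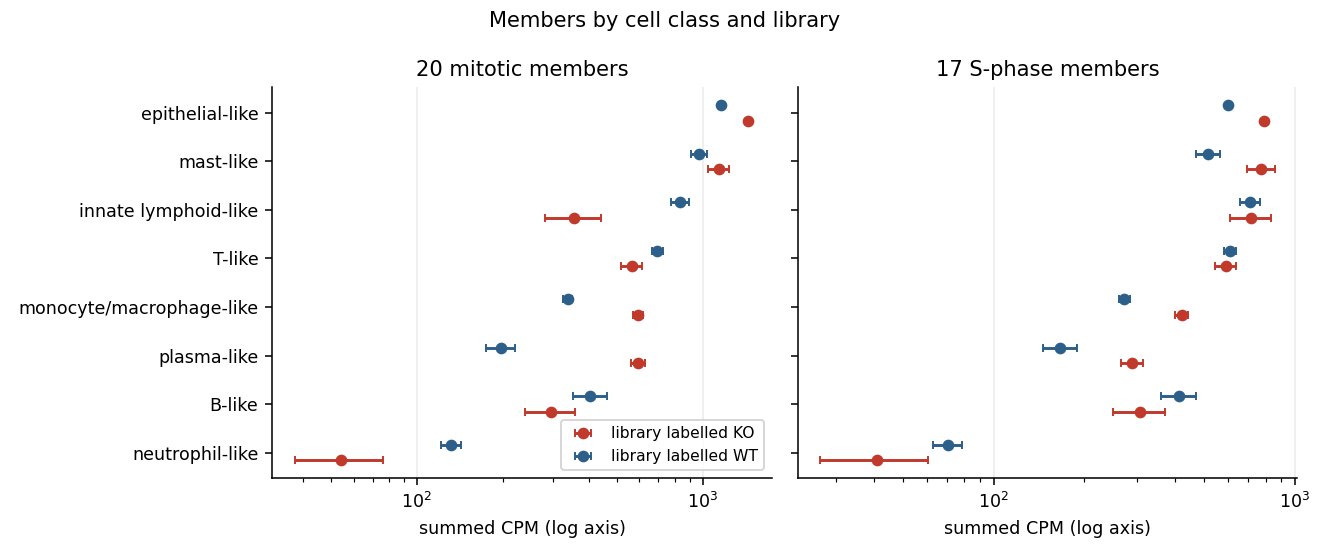
Summed CPM of the 20 mitotic members (left) and the 17 S-phase members (right) in 8 cell classes, on log axes that differ between the panels. Red points are the library labelled KO, blue points the library labelled WT, and bars are exact 95% Poisson intervals. Mitotic levels in epithelial-like cells are 1446 and 1158 CPM, and neutrophil-like cells are the lowest class in both panels.

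The balance between the phases differed by class, and within a class by cluster. S-phase UMIs over mitotic UMIs came to 0.546 (0.540 to 0.553) and 0.520 (0.510 to 0.529) in epithelial-like cells. In T-like cells the ratio was 1.04 (0.927 to 1.18) and 0.875 (0.821 to 0.932), above the epithelial-like intervals in both libraries. Macrophage-like cells as a class stood between them, at 0.708 (0.665 to 0.752) and 0.806 (0.763 to 0.851). In the library labelled WT this interval overlaps the T-like one. The mitotic member Ncapg2 supplied 131 of 2489 and 877 of 2921 mitotic UMIs in macrophage-like cells. In T-like cells it supplied 22 of 545 and 331 of 2094. These phase ratios were not recomputed without Ncapg2, so the order of the classes without it was not tested. Plasma-like cells differed between the libraries, at 0.484 (0.438 to 0.534) and 0.847 (0.711 to 1.01). The plasma-like value of the library labelled WT was 0.493 with no doublet removal and 0.558 with no mitochondrial filter, so its distance from the other library depended on both filters. Among epithelial-like clusters the ratio was 0.957 and 0.510 in cluster 8, 0.900 and 0.636 in cluster 4 and 0.587 and 0.770 in cluster 5. It was 0.509 and 0.586 in cluster 7 and 0.537 and 0.445 in cluster 1. T-like cluster 17 had 0.948 and 0.680, cluster 12 had 1.22 and 1.16, and cluster 22 had 1.41 and 1.17. Some epithelial-like clusters thus reached values of T-like clusters. Of the macrophage-like clusters, cluster 19 had 0.671 and 0.611, cluster 6 had 1 and 1.13, and cluster 3 had 1.10 and 1.60. The macrophage-like class value thus joins clusters that lie on both sides of it.

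In epithelial-like cells most members were somewhat higher in the library labelled KO. The S-phase sum was 1.31-fold higher (1.29 to 1.34) and the mitotic sum 1.25-fold higher (1.23 to 1.26). All 40 members had at least 50 UMIs, 36 had a ratio above 1, and the median ratio was 1.36. A ratio of at least 1.5 was reached by 10 members, and 2 were lower by the same factor, against 10.3% and 16.8% of all genes tested. Members passed the fold upward more often than all genes, yet most of them moved by less.

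Among the licensing and helicase genes, Mcm7 had 83.4 and 61.4 CPM (ratio 1.36, 1.29 to 1.44) and Mcm3 had 62.6 and 36.2 CPM (1.73, 1.62 to 1.86). All 9 genes of this group had intervals above 1, with ratios from 1.24 for Cdc6 to 1.73 for Mcm3. Of the nucleotide supply genes, Rrm1 had 65.4 and 53.7 CPM (1.22, 1.15 to 1.29) and Tyms 69.98 and 41.9 CPM (1.67, 1.56 to 1.78). Rrm2, whose promoter is shown above with that of Rrm1, had 34.8 and 25.7 CPM (1.35, 1.24 to 1.48). Pcna had 140.2 and 136 CPM, a ratio of 1.03 (0.989 to 1.07) that did not differ beyond counting error. Uhrf1, which helps copy DNA methylation, had 47.2 and 36.1 CPM (1.31, 1.22 to 1.41), and Exo1, a repair exonuclease, 11.3 and 5.37 CPM (2.11, 1.76 to 2.53). The E cyclins did not follow the helicase. Ccne1 had 15.9 and 14.8 CPM (1.08, 0.958 to 1.21), and Ccne2 was lower in the library labelled KO, with 6.21 and 9.86 CPM (0.629, 0.536 to 0.739).

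Of the members that span both phases, Esco2, an acetyltransferase that ties sister chromatids together, had the highest ratio of all 40. It had 27.3 and 9.93 CPM (2.75, 2.42 to 3.13). Fbxo5, an inhibitor of the anaphase-promoting complex, had 19.4 and 10.9 CPM (1.78, 1.56 to 2.02). Ccna2, cyclin A, had 54.4 and 52.1 CPM (1.04, 0.980 to 1.11) and did not differ beyond counting error.

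The mitotic members split in a similar way. Mki67, which coats mitotic chromosomes, had 129 and 65.8 CPM (1.97, 1.87 to 2.07), and Top2a, which untangles DNA, 191 and 138 CPM (1.38, 1.33 to 1.44). Cenpe, a kinetochore motor, had 49.99 and 25.9 CPM (1.93, 1.78 to 2.10). Cdk1, the mitotic kinase, had 97.8 and 65.6 CPM (1.49, 1.41 to 1.57). Its cyclins were level or lower. Ccnb1 had 44.2 and 42.2 CPM (1.05, 0.976 to 1.12) and Ccnb2 58.6 and 63.1 CPM (0.928, 0.876 to 0.984). Cenpa, the centromeric histone, was also lower, with 84.6 and 97.2 CPM (0.871, 0.831 to 0.913). All 5 cyclins among the members therefore had ratios between 0.629 and 1.08, below the median of the members.

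Of the genes that end mitosis, Ube2c had 193 and 143 CPM (1.34, 1.30 to 1.39) and Cdc20 68.7 and 47.2 CPM (1.46, 1.37 to 1.55). Birc5, a passenger protein of dividing chromosomes, had 137 and 96.6 CPM (1.42, 1.36 to 1.48). The spindle genes Tpx2, with 69.7 and 48.3 CPM, and Kif11, with 39.9 and 32.3 CPM, had ratios of 1.44 and 1.24. The other mitotic members, Plk1, Aurka, Aurkb, Bub1, Bub1b, Cenpf and Kif20a, had ratios from 1.11 for Plk1 to 1.56 for Bub1, all with intervals above 1.

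Ncapg2, a subunit of condensin II, went the other way. It had 26.97 and 86.1 CPM (0.313, 0.294 to 0.334). The level in the library labelled KO was the lower one in each of the 11 named classes, with the interval below 1 in 10 of them. Neutrophil-like cells had 1 and 262 Ncapg2 UMIs out of 33 and 593 mitotic UMIs, so this 1 gene was a large part of the mitotic signal of that class in the library labelled WT.

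**Figure D2:**
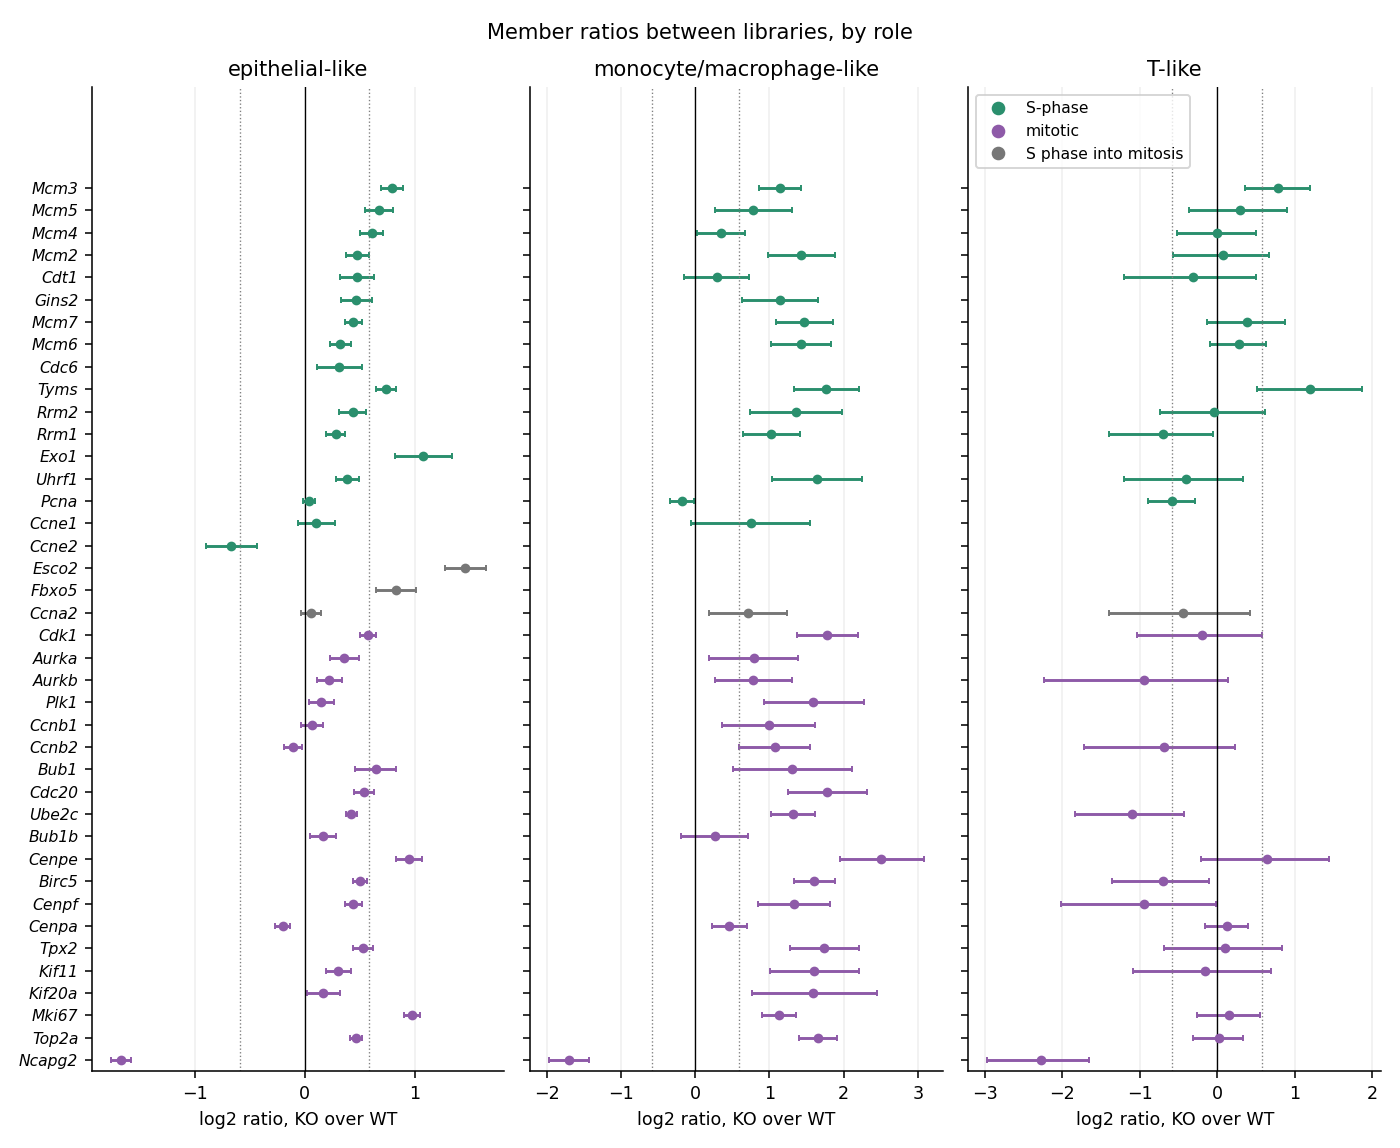
Log2 ratio of CPM, library labelled KO over library labelled WT, for each member with at least 50 UMIs over both libraries, in the epithelial-like, the monocyte/macrophage-like and the T-like class. Points are coloured by list, bars are exact 95% intervals for counting error, and dotted lines mark 1.5-fold. Ncapg2 lies far to the left in all 3 panels, and 36 of 40 members lie right of 0 in epithelial-like cells.

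The epithelial-like cells formed 7 clusters, and 5 of them had at least 50 cells in both libraries. Cluster 7, led by Gpx2, Slc12a2 and Cdca7 and given no subtype, was highest for 15 of 17 S-phase and 18 of 20 mitotic members in the library labelled KO. In the library labelled WT it was highest for 17 S-phase and 8 mitotic members, while cluster 1, a stem/Wnt-like cluster led by Smpx, Prox1 and Spock2, was highest for 11 mitotic members. Mitotic members had 2148 and 1733 CPM in cluster 7 and 1800 and 1756 CPM in cluster 1. The other stem/Wnt-like cluster, number 4, led by Pnliprp2, Pnliprp1 and Ptn, had only 399.6 and 719.6 CPM. Surface-like cluster 8, led by Clca4b, Saa1 and Ly6m, had 385 and 393 CPM, and Paneth-like cluster 5 had 573 and 522 CPM. Of the clusters with stem cell markers, cluster 4 thus lay well below cluster 1 in both libraries.

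The cluster mix differed between the libraries. Cluster 7 made up 22.5% and 9.69% of epithelial-like cells, and surface-like cluster 8 made up 3.61% and 28.6%. Within clusters the mitotic ratio ran in both directions. It was 1.24 (1.21 to 1.27) in cluster 7, 1.10 (1.02 to 1.18) in cluster 5 and 1.02 (1.01 to 1.04) in cluster 1. In cluster 8 it was 0.978 (0.900 to 1.06), and in cluster 4 it was 0.555 (0.532 to 0.580). The 5 richest cells supplied 74.5 and 46.2 percent of the mitotic UMIs of cluster 5, and 74.7 and 43.0 percent in cluster 8. They supplied 41.6 and 27.1 percent in cluster 4, 8.76 and 18.3 percent in cluster 7 and 9.26 and 8.44 percent in cluster 1. Of cluster 5 cells thinned to 2000 UMIs each, 11.4% (6.05 to 19.1) and 13.1% (8.39 to 19.2) kept at least 2 mitotic UMIs. Clusters were also weighted by their UMIs, not their cells, in the library labelled WT, an alternative chosen after seeing the data. The class ratio of 1.25 then became 0.996 for mitotic members, and 1.31 became 1.11 for S-phase members. At this weighting the mitotic sum of the class was nearly equal between the libraries. The mitotic sums include Ncapg2, which in the library labelled WT ranged only from 80.8 to 96.9 CPM between clusters. In cluster 8 Ncapg2 had 10.4 and 86.4 CPM (0.120, 0.0768 to 0.181). Neither the cluster ratios nor this weighting were recomputed without Ncapg2. Member by member, 10 of 16 tested mitotic members of cluster 8 had ratios above 1, with a median of 1.27. In cluster 4 it was 1 of 20, with a median of 0.597. Ratios within clusters depended on how cells were grouped, since with cell cycle genes kept among the clustering genes the mitotic ratio was 0.492 in the cluster matched to 1 and 0.712 in that matched to 5.

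Cluster 4 was the exception to the class. Of its 38 tested members 0 were higher by 1.5-fold and 18 lower, against 10.9% and 11.8% of all genes in that cluster. The lower ones were mostly mitotic, 14 of 20, with 3 of 15 on the S-phase side. Top2a had 55.1 and 115 CPM there (0.480, 0.428 to 0.537) and Kif11 9.71 and 21.1 CPM (0.459, 0.349 to 0.603). Over the regrouped and refiltered alternatives its mitotic ratio stayed below 1, between 0.555 and 0.807, while its S-phase ratio of 0.787 turned to 1.07 with no doublet removal.

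Surface-like cluster 8 showed the reverse for S phase, with an S-phase ratio of 1.83 (1.66 to 2.02). In it 12 of 29 tested members were higher and 1 lower, against 17.2% and 22.3% of all genes, and 9 of the higher ones were S-phase members. Mcm3 had 21.6 and 5.16 CPM there (4.20, 2.46 to 7.42) and Mcm2 19.97 and 6.45 CPM (3.10, 1.87 to 5.24). The median depth of cluster 8 differed too, at 28246 and 2906 UMIs per cell, and its part was not tested. The 5 cells richest in S-phase UMIs supplied 46.0 and 25.9 percent of those of the cluster. The S-phase ratio was 0.9501 with no mitochondrial filter and 1.01 with cell cycle genes kept for clustering.

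In the remaining clusters the counts stayed near the background. Cluster 1 had 6 of 40 members higher and 3 lower, against 11.3% and 9.61% of all genes, and the lower ones were Ncapg2, Ccnb2 and Cenpa. Cluster 7 had 4 higher and 2 lower, against 11% and 11.6%. Cluster 5 had 3 higher and 2 lower of 33, against 13.8% and 10.6%.

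**Figure D3:**
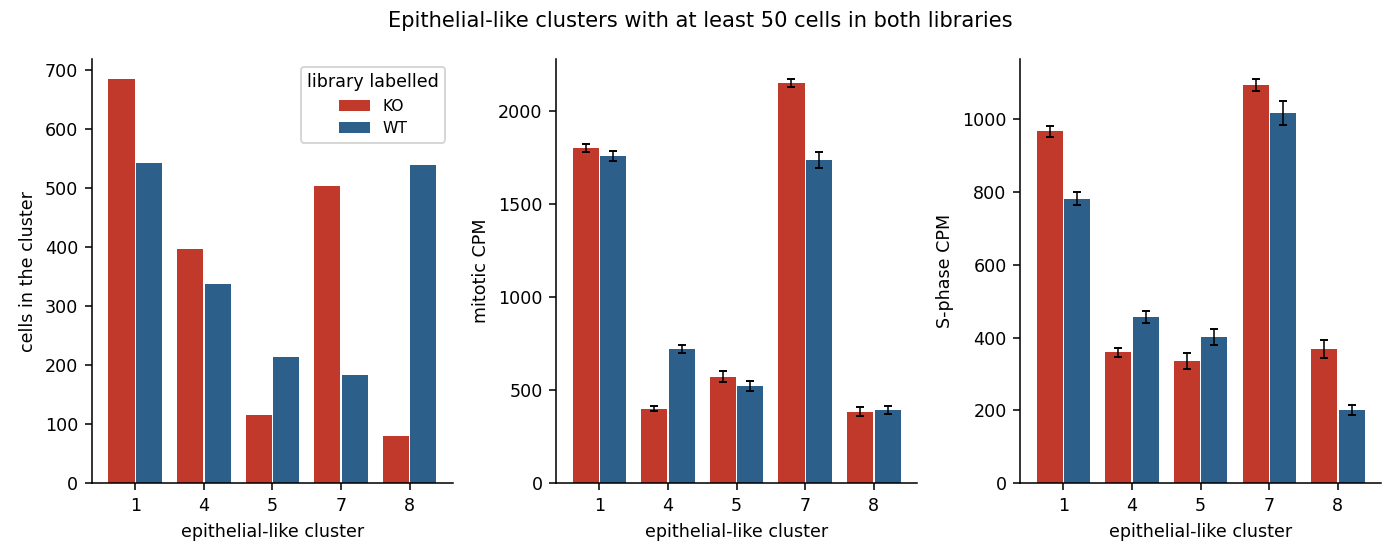
Number of cells (left), mitotic CPM (middle) and S-phase CPM (right) in the 5 epithelial-like clusters with at least 50 cells in both libraries, red for the library labelled KO and blue for the library labelled WT. Error bars are exact 95% Poisson intervals. Cluster 7 holds 504 and 183 cells and the highest S-phase levels, with mitotic levels of 2148 and 1733 CPM beside 1800 and 1756 in cluster 1. Cluster 8 holds 81 and 540 cells, and the mitotic levels of cluster 4 are 399.6 and 719.6 CPM.

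Depth differs between the libraries, so cells were also thinned to 2000 UMIs each and counted when they kept at least 2 mitotic UMIs. Among epithelial-like cells 26.6% (24.7 to 28.5) and 21.9% (19.9 to 24) of 2124 and 1577 cells did so, and 118 and 311 shallower cells were not counted. At full depth 55.2 and 50.4 percent of cells did. For S-phase UMIs the thinned shares were 26.5% (24.6 to 28.4) and 19.1% (17.2 to 21.1). Cells with both kinds made up 15.2% (13.7 to 16.8) and 8.75% (7.40 to 10.3). The intervals of the libraries do not overlap for mitotic UMIs, for S-phase UMIs or for both kinds. The mitotic shares had a ratio of 1.21, which was 1.01 when clusters were drawn at Leiden resolution 0.5 or with cell cycle genes kept. Neutrophil-like cells gave the background, at 0.588% (0.0149 to 3.23) and 3.05% (2.05 to 4.35) for mitotic UMIs. All mitotic shares count Ncapg2, which had 1 and 262 UMIs in neutrophil-like cells, and none were recomputed without it. Within cluster 1 the mitotic shares were 28.6% (25.2 to 32.2) and 35.99% (31.7 to 40.4), lower in the library labelled KO. Their intervals overlap only narrowly, which does not show that the shares are equal. In cluster 7 they were 43.03% (38.6 to 47.6) and 46.1% (37.9 to 54.3), with overlapping intervals.

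**Figure D4:**
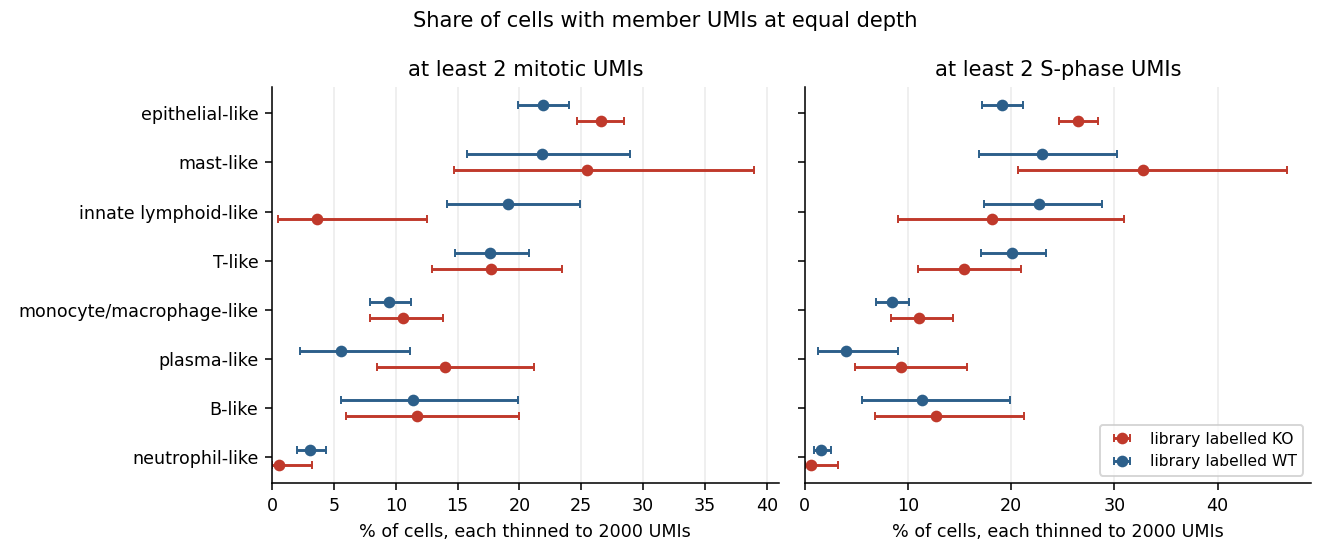
Percent of cells with at least 2 mitotic UMIs (left) or at least 2 S-phase UMIs (right) after each cell was thinned to 2000 UMIs, by class. Red is the library labelled KO, blue the library labelled WT, and bars are exact 95% Clopper-Pearson intervals. The epithelial-like intervals do not overlap in either panel, and those of the macrophage-like and the T-like class do.

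In macrophage-like cells the summed levels differed more than the share of cells that carried them. The mitotic sum was 1.77-fold (1.67 to 1.86) and the S-phase sum 1.55-fold (1.46 to 1.65) higher in the library labelled KO. Of 35 members tested 29 were higher by 1.5-fold and 1, Ncapg2, was lower, against 15.8% and 17.5% of all genes. Cenpe had 24.9 and 4.38 CPM (5.67, 3.88 to 8.45), Top2a 79.8 and 25.4 CPM (3.15, 2.65 to 3.75) and Tyms 28.2 and 8.31 CPM (3.40, 2.51 to 4.62). Pcna did not follow, with 108 and 122 CPM (0.885, 0.791 to 0.989). Yet at equal depth 10.6% (7.93 to 13.8) and 9.47% (7.91 to 11.2) of cells kept 2 mitotic UMIs. Those shares count Ncapg2, which had 31.3 and 101 CPM in this class, and were not recomputed without it. Without Ncapg2 the mitotic ratio of the sums was 2.39. The 5 richest cells supplied 39.3 and 14.8 percent of all mitotic UMIs of the class. Without the 5 cells richest in members the mitotic ratio was 1.32 and the S-phase ratio 1.37.

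The members lay mainly in cluster 19, led by the complement genes C1qa and C1qc with Apoe. Mitotic members had 954 and 582 CPM there, a ratio of 1.64 (1.54 to 1.74). Of 34 tested members 25 were higher and 1 lower, against 13.7% and 15.1% of all genes. In cluster 3, led by Ccl24, Arg1 and Inhba, the mitotic levels were 120.3 and 136 CPM, and 1 of 5 tested members was higher and 2 lower (10% and 24.5% of all genes). In cluster 6, led by Chil3, Vcan and Ms4a4c, the levels were 129 and 171 CPM, with 0 of 4 higher and 3 lower (14.7% and 25.1%). Cluster 19 made up 47% and 27.6% of the cells of the class. With clusters weighted by their UMIs in the library labelled WT, the mitotic ratio of the class was 1.43. The thinned mitotic shares in cluster 19 were 21.7% (16.04 to 28.3) and 21.3% (17.04 to 26.1).

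In T-like cells the mitotic sum was lower in the library labelled KO, at 0.811 (0.737 to 0.892), and the S-phase sum, at 0.968 (0.879 to 1.06), did not differ beyond counting error. Of 26 members tested 3 were higher and 7 lower, against 11% and 23.2% of all genes, which is near the background for the members together. By list, 1 of 13 mitotic members was higher and 6 lower, and 2 of 12 S-phase members were higher and 1 lower. The higher ones were Tyms, with 35.2 and 15.3 CPM (2.30, 1.43 to 3.67), Mcm3, with 78.6 and 45.5 CPM (1.73, 1.29 to 2.30), and Cenpe, with 20.7 and 13.3 CPM (1.56, 0.863 to 2.73). Ncapg2 was the lowest, with 22.8 and 109.9 CPM (0.207, 0.128 to 0.319), and without it, an alternative chosen after seeing the data, the mitotic ratio was 0.924. At equal depth 17.7% (12.9 to 23.4) and 17.6% (14.8 to 20.8) of cells kept 2 mitotic UMIs, Ncapg2 included. With each cell weighted equally the mitotic ratio was 1.01, and with each cluster weighted equally it was 0.725. Without the 5 cells richest in members the mitotic ratio was 0.620 and the S-phase ratio 0.730.

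Plasma-like cells had the largest mitotic ratio of the 4 main classes, 3.03 (2.66 to 3.45), and an S-phase ratio of 1.73 (1.49 to 2.02). Of 15 members tested 12 were higher and 1, Ncapg2, lower, against 19.7% and 18.7% of all genes. Cenpf, a kinetochore protein, had 76 and 3 UMIs, Ube2c 150 and 13, and Rrm2 135 and 18. Epithelial markers also differed in this class, at 1433 and 466 CPM or 10.98 and 4.41 percent of the epithelial-like level, and their part in the ratio was not tested. The member UMIs came from few cells. In the library labelled KO 88.9% of the Rrm2 UMIs were in 5 cells, and the highest cell alone held 93. The 5 richest cells supplied 61.6 and 55.1 percent of all mitotic UMIs. The thinned shares, 13.95% (8.48 to 21.2) and 5.56% (2.26 to 11.1), have overlapping intervals, which does not show that they are equal. The mitotic ratio was 1.79 with no doublet removal.

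Several members were highest outside the epithelium. For 11 of the 40 the epithelial-like class was highest in neither library, among classes with at least 50 cells. Mcm6 was highest in T-like cells, with 94.2 and 77.7 CPM against 54.2 and 43.3 CPM in epithelial-like cells. Cdt1 was highest in B-like cells, with 34.9 and 59.4 CPM against 23.02 and 16.6 CPM, from only 12 and 31 UMIs. Only 2 members reached 50 UMIs in B-like cells, of which 0 were higher by 1.5-fold and 1 lower (10.5% and 19.6% of all genes). Cenpa was highest in T-like cells of the library labelled KO and in B-like cells of the library labelled WT, with 153 and 157 CPM. Mcm4 and Mcm5 were highest in innate lymphoid-like cells, from few UMIs. Mcm4 had 53.95 and 60.3 CPM there (12 and 55 UMIs) against 52.03 and 34.1 CPM in epithelial-like cells, and Mcm5 had 58.4 and 39.5 CPM (13 and 36 UMIs) against 36.6 and 22.9 CPM. Fbxo5 was highest in mast-like cells, at 30.3 and 20.6 CPM, also from few UMIs (14 and 20). The other 5 were Ccne2, Esco2, Mcm3, Ncapg2 and Rrm2, whose highest class differed between the libraries.

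Epithelial RNA set free into the droplets can give member UMIs to cells that made none. The 10 epithelial markers were all detected in every class compared, at 6.52 and 2.13 percent of the epithelial-like level in macrophage-like cells and 3.53 and 2.37 percent in T-like cells. If those marker UMIs came from epithelial RNA of the same library, they would bring a calculable number of mitotic UMIs with them. Observed mitotic UMIs were 11.05 (10.1 to 12.02) and 25.3 (24.3 to 26.4) times this number in T-like cells. In the macrophage-like class they were 6.31 (6.06 to 6.56) and 13.7 (13.2 to 14.2) times, and in plasma-like cells 3.75 (3.55 to 3.97) and 3.86 (3.42 to 4.33) times. Without the 5 richest cells, chosen after seeing the data, the plasma-like values were 1.47 and 2.39. In neutrophil-like cells of the library labelled KO the value was 1.04 (0.716 to 1.46), the level of free RNA. In the library labelled WT it was 3.70 (3.41 to 4.02), and 2.23 without Ncapg2. In that class 0 of the 3 members tested were higher and 3 lower (13.5% and 28.6% of all genes).

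Mast-like cells of the library labelled KO carried epithelial markers at 55.4% of the epithelial-like level. Their mitotic UMIs were 1.42 times (1.30 to 1.55) those of free RNA, and 0.915 times without their 5 richest cells. Their S-phase UMIs were 1.76 times (1.59 to 1.96), and 1.75 times without those cells. Of 18 members tested 5 were higher and 3, Top2a, Kif11 and Ncapg2, lower, against 28.9% and 22.7% of all genes. The 5 cells were picked by their mitotic UMIs, which by itself tends to lower the mitotic value of the rest, so no conclusion is drawn from 0.915. The part of epithelial RNA in the Fbxo5 level was not tested.

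**Figure D5:**
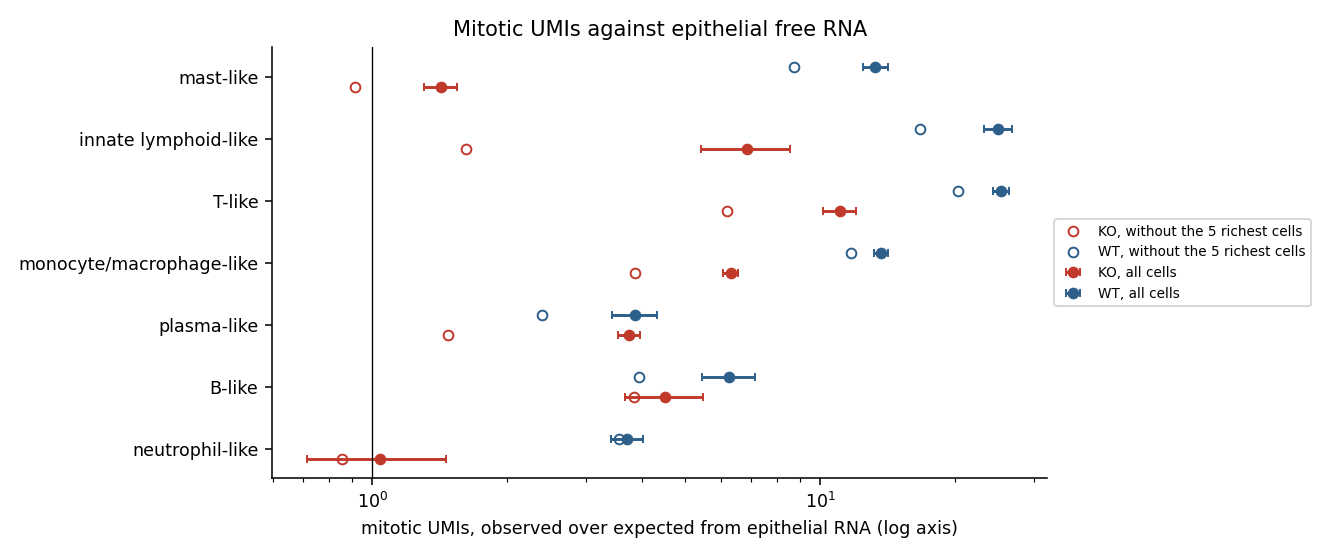
Mitotic UMIs observed in each class over those expected if its epithelial marker UMIs came from epithelial RNA of the same library, on a log axis. Filled points with exact 95% Poisson intervals use all cells, open points leave out the 5 cells richest in mitotic members, and the line at 1 is the level of free RNA. T-like cells stand at 11.05 and 25.3 and neutrophil-like cells of the library labelled KO at 1.04.

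The wider machinery, 45 further replication genes, 55 further mitotic genes and 20 brakes and G1 cyclins, were counted in the same way. In epithelial-like cells, where 10.3% and 16.8% of all genes were higher and lower by 1.5-fold, 20 of 45 replication genes were higher by 1.5-fold and 1 lower, and 9 of 55 mitotic genes were higher and 0 lower. Their median ratios were 1.43 and 1.25, beside 0.982 over all genes tested. Ung, which removes uracil from DNA, had the highest ratio (2.34, 2.03 to 2.70), followed by Smc4, a condensin subunit (2.09, 1.97 to 2.22), and Cenpk, a centromere protein (2.04, 1.79 to 2.32). Rpa3, of the single-strand binding complex, was lower (0.628, 0.596 to 0.660), and the phosphatase Cdc25c was below 1 but short of the fold (0.693, 0.581 to 0.828). Of the brakes and G1 cyclins 5 of 20 were higher and 1, Ccng2 (0.575, 0.538 to 0.614), was lower.

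In macrophage-like cells, where the shares over all genes were 15.8% and 17.5%, 26 of 36 tested replication genes and 29 of 35 mitotic genes were higher and 1 and 1 lower. The higher ones were led by the kinase Pbk (7.04, 3.90 to 13.5) and the primase subunit Prim1 (5.90, 3.06 to 12.1). Of 17 brakes and G1 cyclins 3 were higher and 3 lower. Mdm2, the ubiquitin ligase of p53, was the lowest (0.494, 0.441 to 0.552). In T-like cells 3 of 26 replication genes were higher and 3 lower, and 3 of 20 mitotic genes were higher and 5 lower, counts near the 11% and 23.2% of all genes. Of 16 brakes and G1 cyclins 1 was higher and 2 lower. The extremes there were Rfc4, a clamp loader subunit (2.56, 1.41 to 4.61), and Nusap1, a spindle protein (0.373, 0.180 to 0.698). In plasma-like cells, against 19.7% and 18.7% of all genes, 11 of 13 mitotic genes were higher and 0 lower. There 4 of 11 replication genes were higher and 1 lower, with a median ratio of 1.18, and 4 of 14 brakes and G1 cyclins were higher and 3 lower.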

How the data were processed

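Raw UMI counts per gene and cell were deposited by the authors, made with Cell Ranger 7.2.0 on GRCm39 per the submitters' processing notes. The extraction protocol in the labels describes bulk RNA, while the matrices are per cell. Counts were read with Python 3.11.15, scipy 1.17.1 and scanpy 1.11.5. The libraries held 4896 and 9512 barcodes. Cells with at least 200 genes and at most 20% mitochondrial UMIs were kept. Scrublet's own threshold marked 2 and 0 cells, so the highest scores were removed at 0.8% per 1000 barcodes (154 and 633 cells). Clustering used 2000 variable genes without cell cycle genes, 30 components, 15 neighbours and Leiden resolution 1. Clusters were named from 156 marker genes in 22 lists.

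Ratios of summed UMIs carry exact conditional binomial intervals, levels exact Poisson and shares Clopper-Pearson intervals (95%). Scripts were tested on simulated data. Members, lists and rules were chosen with earlier results of these data known. Values are given for the 2 members of each role with the most epithelial-like UMIs, members past the fold against a class's direction, members highest outside the epithelium and each class's extremes. Exo1, Cenpe, Fbxo5, Ccnb1, Rrm2 and Mcm2 in epithelial-like cells or clusters were added after their values were seen. Alternatives varied filters, doublets, clustering, lists, weights and thresholds.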

Additional observations from a re-analysis of the deposited data

Results flagged for a closer look

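The difference between the libraries ran in opposite directions in different cell classes. The mitotic ratio, library labelled KO over library labelled WT, was 1.25 in epithelial-like, 1.77 in macrophage-like and 3.03 in plasma-like cells, and 0.811 in T-like cells. The difference between these classes was not tested.

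Within the epithelium the clusters differed as well. The mitotic ratio was 1.02 in cluster 1, 1.10 in cluster 5 and 1.24 in cluster 7, against 0.555 in cluster 4. The S-phase ratio was 1.24 in cluster 1, 1.08 in cluster 7 and 1.83 in cluster 8, against 0.787 in cluster 4 and 0.836 in cluster 5. These differences were not tested.

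A signal also stood in cells that no comparison of the report used. Unnamed cluster 14, which holds shallow cells, had 2525 and 2391 mitotic CPM, above every named class of at least 50 cells. Its median depth was 1348 and 1974 UMIs per cell. Its epithelial markers stood at 7284 and 6076 CPM, beside 13047 and 10566 CPM in epithelial-like cells. The 5 richest cells supplied 65.6 and 21.7 percent of its mitotic UMIs. The part of epithelial RNA in this signal was not tested. Unnamed cluster 20 had 544 mitotic CPM in the library labelled KO, above the neutrophil-like level. There its epithelial markers stood at 3543 CPM, and 5 cells supplied 81.2 percent of its mitotic UMIs.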

How the results depend on the processing

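No paired analysis was possible because each genotype has 1 library and the labels give no replicate numbers. For the same reason no library could be left out. Values are ratios of the library labelled KO over the library labelled WT unless a library is named, and clusters are matched by shared cells where cells were regrouped. Of 436 recomputed values, 293 stayed within the counting interval or within 1.5 times the count, 133 moved further and 10 turned direction. Totals without mitochondrial and ribosomal RNA transcripts, and thinning to 1000 UMIs, moved none of the results they were run on. The cause of each change was not tested, beyond what the setting itself removes or regroups. The alternatives without Ncapg2, with the cluster mix and without the 5 cells richest in mitotic members were chosen after seeing the data. With no doublet removal, the mitotic ratio was 1.27 (epithelial), 1.60 (macrophage), 0.917 (T) and 1.79 (plasma). In addition, the S-phase ratio was 1.08 (T). Here S-phase over mitotic UMIs were 0.493 (plasma WT). Under this setting, the number of members past the fold, higher, was 5 (T). With this choice, observed over expected was 5.01 (macrophage KO), 8.67 (macrophage WT), 5.96 (T KO), 20.7 (T WT), 2.43 (plasma KO) and 3.25 (plasma WT). At the same time, the mitotic cluster ratio was 1.16 (cluster 1), 0.743 (cluster 4), 1.32 (cluster 7) and 0.812 (cluster 8). There the S-phase cluster ratio was 1.07 (cluster 4), 1.22 (cluster 7) and 1.59 (cluster 8). With no mitochondrial filter, S-phase over mitotic UMIs were 0.562 (epithelial KO) and 0.558 (plasma WT). In addition, the mitotic ratio was 1.95 (plasma). Here the number of members past the fold, lower, was 1 (epithelial). Under this setting, observed over expected was 7.83 (macrophage KO), 15.2 (macrophage WT), 1.70 (plasma KO) and 4.84 (plasma WT). With this choice, the mitotic cluster ratio was 1.06 (cluster 1), 0.763 (cluster 4) and 1.28 (cluster 7). At the same time, the S-phase cluster ratio was 1.03 (cluster 4), 1.14 (cluster 7) and 0.9501 (cluster 8). At Leiden resolution 0.5, the mitotic ratio was 1.21 (epithelial). There the S-phase ratio was 1.28 (epithelial). In addition, the mitotic cell share ratio was 1.01 (epithelial). Here observed over expected was 7.73 (macrophage KO), 12.8 (macrophage WT), 23.5 (T WT) and 6.01 (plasma KO). Under this setting, the mitotic cluster ratio was 1.09 (cluster 1), 0.807 (cluster 4), 1.17 (cluster 7) and 0.763 (cluster 8). With this choice, the S-phase cluster ratio was 1.02 (cluster 4), 1.12 (cluster 7) and 1.51 (cluster 8). At Leiden resolution 2, observed over expected was 8.41 (macrophage KO). At the same time, the mitotic cluster ratio was 1.12 (cluster 1), 0.705 (cluster 4), 1.20 (cluster 7) and 0.158 (cluster 8). There the S-phase cluster ratio was 1.27 (cluster 1), 0.975 (cluster 4) and 1.30 (cluster 8). With cell cycle genes kept among the variable genes, the mitotic ratio was 1.20 (epithelial). In addition, the S-phase ratio was 1.27 (epithelial). Here the mitotic cell share ratio was 1.01 (epithelial). Under this setting, the S-phase cell share ratio was 1.20 (epithelial). With this choice, observed over expected was 7.69 (macrophage KO), 13.04 (macrophage WT), 22.9 (T WT) and 7.21 (plasma KO). At the same time, the mitotic cluster ratio was 0.492 (cluster 1), 0.676 (cluster 4), 0.712 (cluster 5), 1.04 (cluster 7) and 0.592 (cluster 8). There the S-phase cluster ratio was 0.737 (cluster 1), 0.854 (cluster 4), 0.643 (cluster 5), 0.891 (cluster 7) and 1.01 (cluster 8). With Ccna2, Esco2 and Fbxo5 counted as mitotic, S-phase over mitotic UMIs were 0.511 (epithelial KO) and 0.489 (epithelial WT). With Ccna2, Esco2 and Fbxo5 counted as S-phase, S-phase over mitotic UMIs were 0.616 (epithelial KO), 0.583 (epithelial WT) and 0.559 (plasma KO). With each cell weighted equally, the mitotic ratio was 1.33 (epithelial), 1.35 (macrophage) and 1.01 (T). In addition, the S-phase ratio was 1.40 (epithelial), 1.17 (macrophage) and 1.25 (plasma). Here S-phase over mitotic UMIs were 0.609 (epithelial KO), 0.579 (epithelial WT), 0.831 (macrophage KO), 0.960 (macrophage WT), 0.998 (T WT) and 0.393 (plasma KO). With each cluster weighted equally, the mitotic ratio was 1.00 (epithelial), 1.35 (macrophage) and 0.725 (T). Under this setting, the S-phase ratio was 1.06 (epithelial), 1.18 (macrophage) and 0.868 (T). With this choice, S-phase over mitotic UMIs were 0.567 (epithelial KO), 0.532 (epithelial WT), 0.861 (macrophage WT) and 0.943 (T WT). Without the 5 cells of each class and library richest in members, S-phase over mitotic UMIs were 0.556 (epithelial KO), 0.920 (macrophage KO), 0.885 (macrophage WT), 0.968 (T WT) and 0.626 (plasma KO). At the same time, the mitotic ratio was 1.32 (macrophage) and 0.620 (T). There the S-phase ratio was 1.37 (macrophage) and 0.730 (T). With the clusters weighted by their UMIs in the library labelled WT, the mitotic ratio was 0.996 (epithelial) and 1.43 (macrophage). In addition, the S-phase ratio was 1.11 (epithelial) and 1.29 (macrophage). Without Ncapg2, the mitotic ratio was 1.32 (epithelial), 2.39 (macrophage), 0.924 (T) and 3.90 (plasma). At a 2-fold threshold, the number of members past the fold, higher, was 2 (epithelial) and 1 (T). Here the number of members past the fold, lower, was 1 (epithelial) and 2 (T). With at least 10 UMIs per gene, the number of members past the fold, higher, was 5 (T) and 29 (plasma). Under this setting, the number of members past the fold, lower, was 17 (T) and 2 (plasma). With at least 1 UMI per gene, the number of members past the fold, higher, was 5 (T) and 30 (plasma). With this choice, the number of members past the fold, lower, was 17 (T) and 2 (plasma). With at least 3 UMIs per cell, the S-phase cell share ratio was 2.04 (macrophage). With epithelial free RNA subtracted, the mitotic ratio was 1.60 (macrophage). At the same time, the S-phase ratio was 1.43 (macrophage) and 1.44 (plasma). With Epcam alone as the epithelial marker, observed over expected was 16.4 (macrophage WT), 3.35 (plasma KO) and 1.91 (plasma WT). Without the 5 cells richest in mitotic members, observed over expected was 3.86 (macrophage KO), 11.7 (macrophage WT), 6.19 (T KO), 20.3 (T WT), 1.47 (plasma KO) and 2.39 (plasma WT). Equal weights for clusters could not be computed for plasma-like cells, which form 1 cluster. Depth limits which members could be compared, since of the 4 main classes the plasma-like and T-like had the fewest members with 50 UMIs, 15 and 26 of 40. Smaller classes had fewer still, 2 in B-like and 3 in neutrophil-like cells.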

Other observations

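Classes with fewer cells are given as values only. The innate lymphoid-like class had 58 and 299 cells, of which cluster 23, led by Ccl5, Xcl1 and Cd7, held 84.5% and 83.6%. It had 355 and 835 mitotic CPM and 715 and 709.6 S-phase CPM, so its S-phase over mitotic ratio was 2.01 (1.53 to 2.67) and 0.850 (0.764 to 0.945). Of its mitotic UMIs, 79.7 and 38.6 percent lay in 5 cells, and the other cells of the library labelled KO had 85.2 mitotic CPM. Of its 11 tested members 0 were higher by 1.5-fold and 7 lower, against 10.9% and 23.5% of all genes. B-like cells had 294 and 404 mitotic CPM and 305 and 412 S-phase CPM, with the phases nearly level at 1.04 and 1.02.

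Barcodes removed as doublets had 965 and 768 mitotic CPM, against 1306 and 857 in kept cells.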
